A study of Homo sapiens with 6 samples.

Results

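Control siRNA PA1 cells made up 3 of the 6 mRNA sequencing libraries in the series, and were selected as the libraries whose label gives control siRNA as the treatment. PA1 is an established human cell line, labelled as ovarian teratocarcinoma with a wildtype genotype, so all values come from 1 line. The cells had been transfected with a non-targeting silencer control, kept attached for 24 h, and then moved to poly-HEMA coated plates, which cells cannot attach to, for 72 h before RNA extraction. The other 3 libraries, from cells given SOX2 siRNA, were not compared here. The labels do not say whether the replicates were separate cultures, so the spread between them may be technical. No adherent or untransfected library was analysed here, and the levels below cannot be told apart from effects of suspension or transfection.

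Teratocarcinomas hold stem-like cells that resemble those of the early embryo. In such cells a small set of transcription factors, among them SOX2 and POU5F1 (OCT4), keeps the pluripotent state together with RNA-binding proteins of the LIN28 family, while factors of the later germ layers are mostly silent. Cells that lose attachment also lose signals from integrins bound to matrix, and the receptors, matrix genes and metabolic genes of such a culture are described after the lineage factors.

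The libraries held 32753184, 25152313 and 28994609 counts in replicates 1, 2 and 3. Levels are given as counts per 1000000 (CPM) for a single gene, and as CPM per kilobase of exon where genes are compared with each other, each as mean ± SD over the 3 libraries. A gene was called expressed at 1 CPM or more in every library, and at the floor when no library held more than 3 counts, which equals 0.0916 to 0.119 CPM. Floors cover counting error only. Of 59653 gene symbols, 14288 were expressed, 12364 of them protein-coding, and 37395 were at the floor. The 1059 highest symbols held 50% of all counts.

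Mitochondrially encoded transcripts took 6.73% ± 0.299 (SD, n = 3) of counts, and 10 of the 15 symbols with the highest CPM were mitochondrial, led by MT-RNR2, the large mitochondrial ribosomal RNA, at 12201 ± 565 CPM. The translation elongation factor EEF1A1 followed at 12121 ± 326 CPM. The other nuclear genes among the 15 were GAPDH, ACTB, VIM and PRTG. PRTG, which encodes protogenin, a transmembrane immunoglobulin-superfamily protein of the early neural tube, stood at 3911, 4348 and 4328 CPM in replicates 1, 2 and 3. VIM encodes vimentin, an intermediate filament of mesenchymal and neural progenitor cells, and had 2929, 2728 and 2985 CPM. Per kilobase of exon the order changed: the highest nuclear genes were EEF1A1 at 2038 CPM per kb, the ferritin light chain FTL at 1297 and GAPDH at 1085, while PRTG stood at 288 ± 16.9.

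Genes of primed pluripotency, the state of human embryonic stem cells, were expressed for 13 of 24 listed genes, 3 were at the floor and 8 lay between. SOX2, the gene targeted in the other arm of the study, had 247, 264 and 255 CPM in replicates 1, 2 and 3. Its partner POU5F1 had 312, 278 and 312 CPM. Per kilobase of exon the levels were 102 ± 3.42 CPM per kb for SOX2 and 104 ± 6.77 for POU5F1, which differed by less than the spread between replicates. The RNA-binding proteins of the LIN28 family, which block maturation of the let-7 microRNAs, were high, LIN28A with 716, 701 and 702 CPM and LIN28B with 230, 249 and 240 CPM. The highest member per length was PODXL, a sialomucin of the stem cell surface, at 191 ± 3.01 CPM per kb, ahead of LIN28A at 176 ± 2.03. SFRP2, a secreted Wnt inhibitor, stood at 102 ± 0.825 CPM per kb, SALL4, a zinc finger factor, at 26.2 ± 0.897, and the de novo methyltransferase DNMT3B at 21.5 ± 1.06. In bulk RNA, fewer cells of a type and less RNA per cell cannot be told apart.

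The list was not complete in these cells. NANOG, a core homeobox factor of pluripotency, held 28, 17 and 27 counts, or 0.821 ± 0.131 CPM, under the level called expressed in every library. POU5F1 and NANOG have pseudogene copies of similar sequence, so reads could be divided among them. ZFP42 (REX1), a zinc finger marker of stem cells, held 0, 0 and 1 counts. TDGF1, a co-receptor for NODAL, held 3, 0 and 3 counts, and the ligand NODAL itself 0, 1 and 2. Genes of naive pluripotency, the state of the pre-implantation embryo, were expressed for 4 of 12, the highest being KLF5 at 1.98 CPM per kb. KLF17, TFCP2L1, DPPA3, DPPA5, NLRP7, TBX3 and FGF4 were at the floor.

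MIR302CHG, the host transcript of a microRNA cluster typical of pluripotent cells, was chosen after its values were seen. It had 54.7, 49.8 and 50.0 CPM. Its exons overlap on the opposite strand those of LARP7, at 133 CPM, and the sources used here do not say whether counting used strand, so the reads of the pair cannot be told apart. The microRNAs themselves were not measured. The mature sequences are printed to show that 4 members share 1 seed, with bases 2 to 8 in capitals (RefSeq, GRCh38.p14, chromosome 4, minus strand).
miR-302a-3p: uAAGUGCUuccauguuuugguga
miR-302b-3p: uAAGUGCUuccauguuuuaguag
miR-302c-3p: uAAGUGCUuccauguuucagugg
miR-302d-3p: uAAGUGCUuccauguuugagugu
miR-367-3p: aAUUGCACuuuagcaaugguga
The miR-302 members carry the seed AAGUGCU, and miR-367-3p from the same cluster carries AUUGCAC.

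Early neural genes were expressed alongside them, with 16 of 26 neural plate and anterior neural genes expressed and 5 at the floor. NES, the intermediate filament nestin of neural progenitors, had 795, 773 and 774 CPM. The ZIC zinc finger factors of the dorsal neural plate were expressed for all 5 members, and ZIC2 took 53.6% ± 0.647 of their summed CPM per kb. ZIC2 had 230, 226 and 229 CPM, a spread between libraries of 2.01 (SD). LHX2, a LIM homeobox factor of the eye field and forebrain, stood at 14.8 ± 0.537 CPM per kb. OTX2, the anterior patterning factor, was lower at 1.59 ± 0.0877 CPM per kb and was 3.08 times OTX1 on that scale. PAX6 and SOX11, of the same list, were expressed at 4.63 ± 0.631 and 4.62 ± 0.622 CPM.

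SOX1, a neural paralog of SOX2, held no count in any library, which allows up to 0.0916 to 0.119 CPM. Among the 5 SOX B genes, SOX2 took 93.1% ± 0.887 of the summed CPM per kb, and SOX3, next in order, was 24.7 times lower. The neural plate factors SIX6, RAX, POU3F3 and HES5 were also at the floor. Of midbrain, hindbrain and spinal genes 5 of 17 were expressed, led by GBX2 at 13.2 ± 0.591 CPM per kb, IRX3 at 8.07 ± 0.678 and NKX6-1 at 7.97 ± 0.34. EN1, EN2, LMX1A, OLIG2, NKX2-2 and SHH were at the floor. Neuronal genes were expressed for 2 of 15, TUBB3 and SYT1, and the proneural factors NEUROG1, NEUROG2 and NEUROD1 were at the floor.

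Neural crest genes were expressed for 13 of 14, the highest share of any lineage list. MSX1 and MSX2, homeobox factors of the neural plate border, stood at 44.3 ± 1.34 and 30.5 ± 1.12 CPM per kb. SOX9 had 103, 94.1 and 102 CPM, and took 95.2% ± 0.162 of the summed CPM per kb of the 3 SOX E genes, with SOX10 at 3.14 ± 0.45 CPM. TFAP2A, a border and crest factor, had 183, 181 and 179 CPM. PAX3 had 76.1, 75.5 and 75.2 CPM, while its paralog PAX7, the only listed crest gene at the floor, held 3, 1 and 2 counts. The crest factors TWIST1 and SNAI2 were lower, at 1.57 and 1.35 CPM per kb.

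SOX2 and SOX1, like PAX3 and PAX7, divided between expression and the floor, so the 250 bases directly upstream of their annotated start are shown, 5′ to 3′ on the gene's strand, with each CG in capitals; NANOG is added as a low pluripotency gene. Methylation of these windows was not measured here. Sequences are from RefSeq (GRCh38.p14): SOX2 at chr3:181711675-181711924 (plus strand), SOX1 at chr13:112066899-112067148 (plus), PAX3 at chr2:222298999-222299248 (minus), PAX7 at chr1:18630596-18630845 (plus) and NANOG at chr12:7789152-7789401 (plus).
SOX2: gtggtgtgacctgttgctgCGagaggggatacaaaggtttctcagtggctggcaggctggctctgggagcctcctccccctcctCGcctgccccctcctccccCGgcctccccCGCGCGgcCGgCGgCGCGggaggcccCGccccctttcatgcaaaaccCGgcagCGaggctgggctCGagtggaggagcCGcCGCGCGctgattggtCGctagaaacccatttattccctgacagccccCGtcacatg
SOX1: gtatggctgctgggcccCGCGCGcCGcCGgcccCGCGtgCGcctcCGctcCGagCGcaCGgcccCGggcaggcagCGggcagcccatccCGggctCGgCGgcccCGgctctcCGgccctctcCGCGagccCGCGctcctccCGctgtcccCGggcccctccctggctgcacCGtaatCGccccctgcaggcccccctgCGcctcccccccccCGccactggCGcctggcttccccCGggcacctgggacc
PAX3: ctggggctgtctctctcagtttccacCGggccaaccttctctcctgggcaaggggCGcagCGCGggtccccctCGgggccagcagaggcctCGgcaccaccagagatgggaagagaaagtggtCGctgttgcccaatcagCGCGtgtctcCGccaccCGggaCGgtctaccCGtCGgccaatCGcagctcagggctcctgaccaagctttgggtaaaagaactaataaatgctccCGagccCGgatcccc
PAX7: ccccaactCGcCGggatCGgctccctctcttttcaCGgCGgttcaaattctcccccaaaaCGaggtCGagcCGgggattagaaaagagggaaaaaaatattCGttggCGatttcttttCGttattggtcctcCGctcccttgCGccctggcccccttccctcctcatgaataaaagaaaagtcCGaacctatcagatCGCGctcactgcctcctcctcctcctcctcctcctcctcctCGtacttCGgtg
NANOG: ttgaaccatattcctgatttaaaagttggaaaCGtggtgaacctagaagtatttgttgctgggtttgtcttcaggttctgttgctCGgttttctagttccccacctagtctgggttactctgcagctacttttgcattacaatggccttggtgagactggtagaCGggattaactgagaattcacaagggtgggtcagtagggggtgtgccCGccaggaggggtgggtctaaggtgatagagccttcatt
The SOX2 window holds 20 CG and that of SOX1, which had no count, holds 31. PAX3 and PAX7 were nearly equal, with 17 and 18. NANOG holds 4. CG reads the same on both strands, and no other motif was searched. Of 15137 protein-coding genes matched to a RefSeq start by symbol, 58.3% had at least 15 CG in this window. The share was 74.2% of 9975 expressed genes and 20% of 3296 genes at the floor, with medians of 21 and 4 CG. Within the lineage lists it was 62.3% of 53 expressed genes and 48% of 50 at the floor, among them SOX1, PAX7, ZFP42 with 23 CG and TBXT with 23. These are descriptions of sequence and level.

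Mesoderm, endoderm and extraembryonic genes were mostly low. Of 21 primitive streak and mesoderm genes 8 were expressed and 8 at the floor. TBXT (brachyury), the defining streak factor, held no count, and GSC, MSGN1, HAND2, FOXF1, MYOD1 and MYF5 were at the floor. The highest were FOXC1 at 30.3, 30.9 and 31.1 CPM and PDGFRA at 30.9 ± 1.48 CPM, while EOMES had 4.57 ± 0.314 and MIXL1 1.85 ± 0.362. Endoderm genes were expressed for 6 of 17, with CER1 at 2.96 CPM per kb, CDX2 at 2.77 and FOXA3 at 2.53, with SOX17, TTR and NKX2-1 among those at the floor. GATA4 was also expressed, at 7.11, 5.76 and 6.86 CPM, and FOXA2 held 13, 2 and 1 counts. Trophoblast genes were expressed for 6 of 16, led by TFAP2C at 9.03 ± 0.451 CPM per kb, and 7 were at the floor. Of the expressed ones, CDX2, HAND1 and TFAP2C also count in the endoderm, mesoderm and germ cell lists. GATA3 was expressed at 2.17 ± 0.0902 CPM, while CGA, CGB5 and ELF5 held no count in any library. Germ cell genes were expressed for 3 of 14, TFAP2C, PRDM1 and DAZL, with DDX4 (VASA) at 2, 0 and 0 counts. Of 39 HOX genes, which set position along the body axis, 5 were expressed and 21 at the floor.

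**Figure D1:**
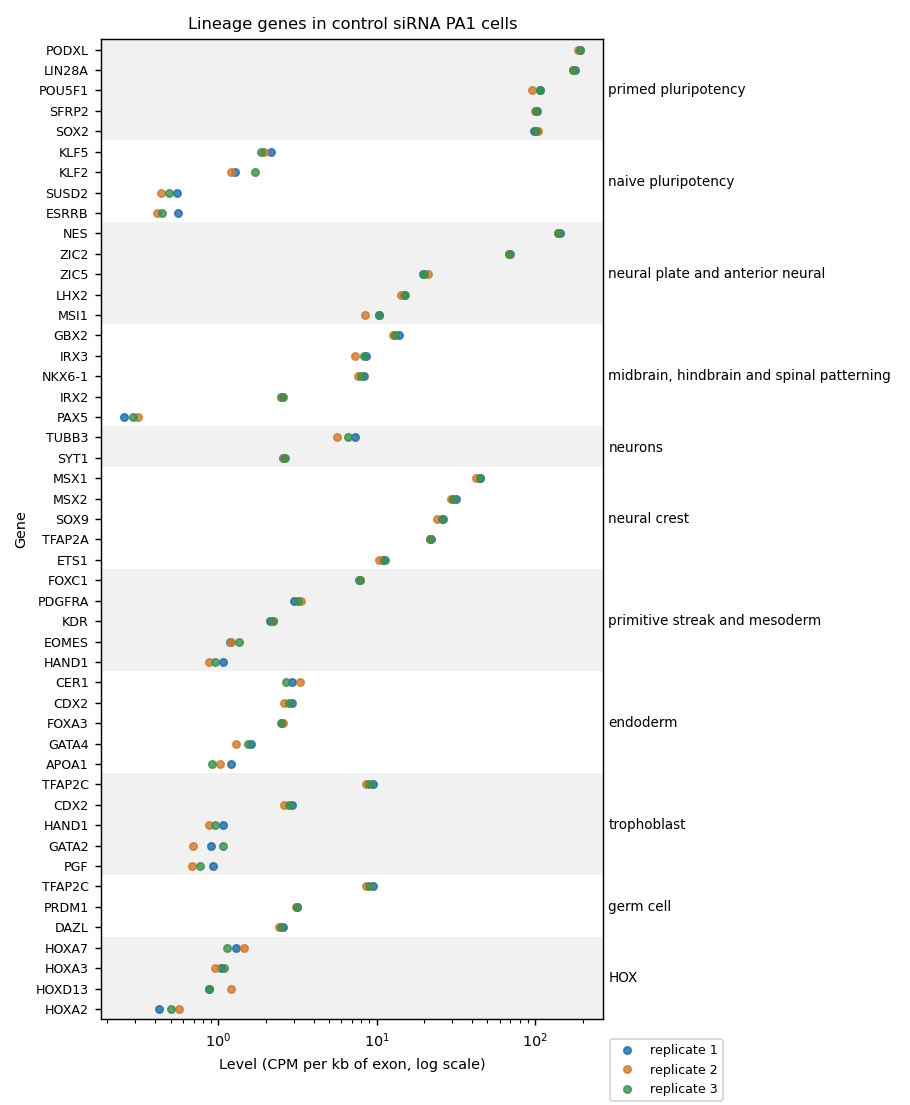
Level of up to 5 of the expressed genes with the highest CPM per kb in each lineage list, leaving out genes not reported here, on a log axis, with 1 point per control library. Primed pluripotency and early neural genes reach 191 and 140 CPM per kb, and the highest mesoderm, endoderm and HOX genes stay under 10 CPM per kb.

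Markers of ovarian epithelium and of other cells were also read, which is no check of the labelled teratocarcinoma origin. Of 16 ovarian surface and carcinoma genes 6 were expressed. The simple-epithelium keratins KRT18 and KRT8 stood at 39.1 ± 2.25 and 34.4 ± 2.23 CPM per kb, but their exons overlap on opposite strands. WT1 had 8.12 ± 0.248 CPM and FOLR1, the folate receptor, 9.03 ± 0.0715. PAX8, a defining factor of Müllerian epithelium, held 7, 7 and 26 counts, and CLDN3 and ESR1 were at the floor. Granulosa and theca genes were expressed for 2 of 10, AMH at 4.82, 4.25 and 4.52 CPM and STAR at 1.59, 1.39 and 1.69. STAR overlaps ASH2L on the opposite strand, which stood at 88.2 CPM. FOXL2, FSHR and CYP17A1 were at the floor.

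Erythroid genes were expressed for 0 of 9, with all at the floor and a summed level of 0.119 to 0.172 CPM. Immune genes were expressed for 2 of 12, with PTPRC, CD3E and MS4A1 at the floor and a summed level of 33.7, 28.3 and 19.2 CPM in replicates 1, 2 and 3, most of it from CD74 and LYZ. Endothelial genes were expressed for 6 of 8, summed to 131 to 137 CPM. PECAM1 (CD31) had 63.3, 63.8 and 65.5 CPM, and the angiopoietin receptor TEK 37.9, 36.5 and 38.3. CLDN5 held no count and EMCN was at the floor. Fibroblast and pericyte genes were expressed for 8 of 11, led by COL1A1 at 28.7 ± 2.55 CPM per kb and THY1 at 17.1 ± 0.743, while DCN and FAP were at the floor. Whether such levels came from all cells or from a few was not tested.

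Receptor tyrosine kinases were expressed for 36 of 58 genes. FGFR1, a receptor for fibroblast growth factors, was the highest with 452, 437 and 426 CPM and took 60.1% ± 0.328 of the summed CPM per kb of the 4 FGF receptors. FGFR2 was 2.61 times lower per kilobase. The ligand FGF2 was also expressed, at 73.9, 77.1 and 79.4 CPM. The Wnt-binding kinases ROR1 and ROR2 and the planar polarity receptor PTK7 followed, at 25.9 ± 0.872, 23.2 ± 0.48 and 22.1 ± 0.907 CPM per kb. IGF1R had 229, 219 and 224 CPM and was 2.87 times higher per kilobase than INSR. ERBB4, FLT3, NTRK3, ALK and ROS1 were at the floor.

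Other growth factor pathways had most of their receptors. TGF-beta family receptors were expressed for 16 of 18. TGFBR1 had 184, 200 and 199 CPM and took 39.5% ± 1.29 of the summed CPM per kb of the 7 type I receptors, and ACVR2B took 53.7% ± 1.66 of the activin and BMP type II receptors. Only TDGF1 was at the floor in that list. Wnt receptors were expressed for 13 of 17. FZD7, a frizzled of pluripotent cells, had 315, 297 and 311 CPM and 54.3% ± 0.436 of the summed CPM per kb of 10 frizzleds, 3.95 times FZD2. The R-spondin receptor LGR4 had 251, 274 and 263 CPM, whereas its intestinal stem cell relative LGR5 held 4, 0 and 1 counts. Notch and Hedgehog receptors were expressed for 8 of 10, with NOTCH2 at 419, 412 and 420 CPM and SMO at 63.0, 59.9 and 60.7.

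Integrins, the receptors for matrix, were expressed for 15 of 26 genes after 72 h without attachment. ITGB1, the beta subunit shared by most matrix integrins, had 712, 728 and 749 CPM and took 92.9% ± 0.434 of the summed CPM per kb of 8 beta subunits. Among 18 alpha subunits, the laminin-binding ITGA6 took 43.0% ± 1.05 and ITGAV, which binds vitronectin and fibronectin, 32.7% ± 1.19. ITGA6 had 351, 360 and 354 CPM and ITGAV 322, 336 and 362. ITGA4, ITGAD and ITGB6 were at the floor.

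Nuclear receptors were expressed for 27 of 48. NR6A1 (GCNF), an orphan receptor that represses POU5F1 during differentiation, was the highest at 411, 401 and 397 CPM, or 56.6 ± 1 CPM per kb. NR2F1 (COUP-TFI), next at 20.8 ± 0.657 CPM per kb, overlaps NR2F1-AS1, which stood at 17.9% of its CPM. The sex steroid receptors ESR1, ESR2 and PGR were at the floor. Cytokine, interferon and death receptors were expressed for 28 of 35, led by TNFRSF21 (DR6) at 39.1 ± 2.57 CPM per kb, the TRAIL receptor TNFRSF10B at 29.5 and IL6ST (gp130) at 22.2 ± 0.658, while the other TRAIL death receptor, TNFRSF10A, was at the floor. Of 34 selected G protein-coupled receptors 23 were expressed. The adhesion receptor ADGRL2 had 599, 638 and 614 CPM and the endothelin receptor EDNRB 361, 358 and 379.

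**Figure D2:**
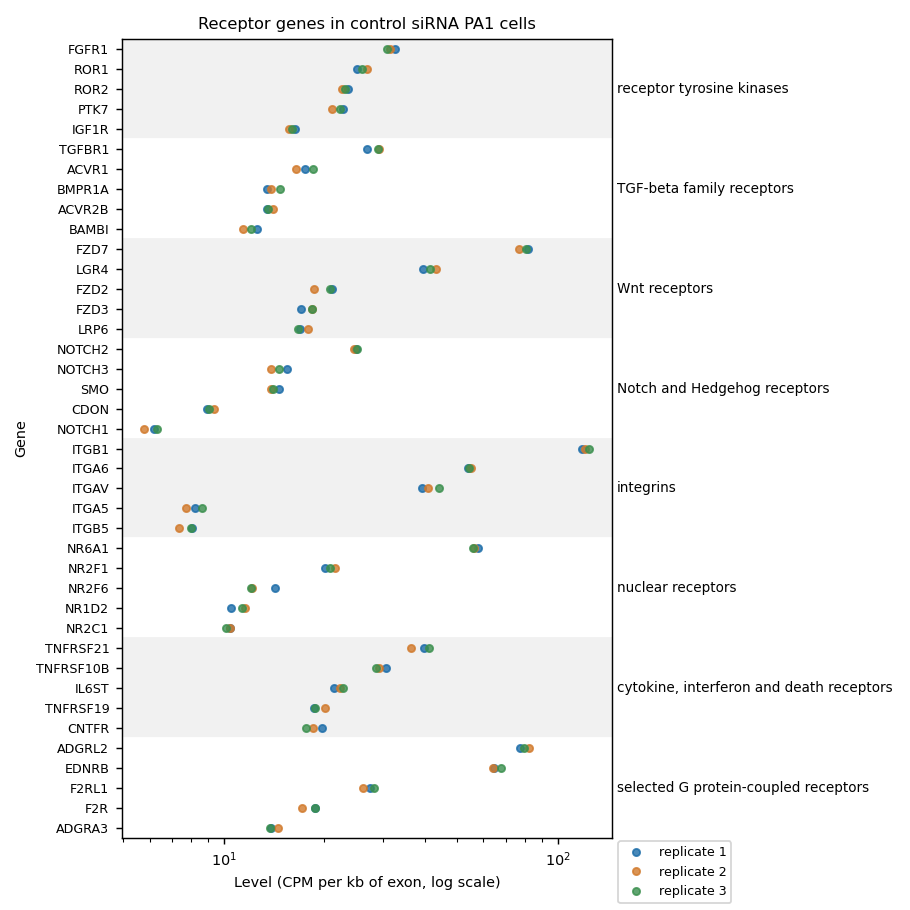
Level of the 5 genes with the highest CPM per kb in each receptor list, on a log axis, with 1 point per control library. ITGB1 is the highest at 121 CPM per kb, followed by FZD7 and ADGRL2 at 79.6.

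Basement membrane genes were among the highest matrix genes. Laminins are trimers of an alpha, a beta and a gamma chain. LAMC1 had 838, 859 and 888 CPM and took 99.3% ± 0.115 of the summed CPM per kb of the gamma chains, and LAMB1 took 80.0% ± 0.291 of the beta chains. LAMB1 and DLD overlap on opposite strands, with DLD at 56.1% of its CPM. LAMA1 took 55.3% ± 1.92 of the alpha chains, but LAMA5 was the higher when the mean transcript length was used. Collagen IV, the network collagen, was mainly COL4A1 at 850, 851 and 887 CPM and COL4A2 at 628, 608 and 647. Together with NID1, which links laminin to collagen IV, at 280, 275 and 291 CPM, the main components of a basement membrane were all expressed. Of 22 laminin and basement membrane genes 16 were expressed.

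Collagens were expressed for 27 of 44. After COL4A1 at 58.5 ± 1.45 CPM per kb, COL18A1 stood at 54.0 ± 2.36, COL4A2 at 32.5 ± 1 and the cartilage and notochord collagen COL2A1 at 29.3 ± 0.768. Enzymes that modify collagen were expressed for 18 of 19, with the chaperone SERPINH1 (HSP47) at 51.2 ± 2.14 CPM per kb and the prolyl hydroxylase subunit P4HA1 at 45.8 ± 3.72. Among proteoglycans, expressed for 13 of 25, VCAN (versican) had 1643, 1799 and 1685 CPM and stood at 115 ± 5.45 CPM per kb, followed by SDC2 at 35.8 ± 1.59 and GPC3, an oncofetal glypican, at 33.5 ± 1.05. Of 48 matrix glycoproteins 33 were expressed. SPP1 (osteopontin) had 398, 377 and 398 CPM and was the highest per length at 168 ± 5.44 CPM per kb, against 52.1 ± 0.747 for SPARC and 27.4 ± 2.16 for FN1 (fibronectin). Metalloproteases and their inhibitors were expressed for 12 of 28. The inhibitor TIMP1 stood at 40.1 ± 2.05 CPM per kb and the gelatinase MMP2 at 23.4 ± 0.51, while MMP3, MMP12 and MMP13 were at the floor.

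Glycolytic genes were expressed for 18 of 28, and in most steps 1 gene dominated. ALDOA took 91.6% ± 0.234 of aldolase, ENO1 95% ± 0.171 of enolase, and PKM nearly all of pyruvate kinase. Lactate dehydrogenase, which interconverts pyruvate and lactate, was mainly the heart-type subunit LDHB, with 913, 885 and 921 CPM against 453, 445 and 510 for the muscle-type LDHA. LDHB took 80.1% ± 0.968 of their summed CPM per kb, 4.02 times LDHA, and was also the higher with the mean transcript length and with no length correction. HK2 and HK1 were close, with shares of 54.0% ± 1.81 and 45.8% ± 1.75, and HK1 was the higher with the mean transcript length. PFKP and PFKL overlapped between libraries. PGK2, LDHC and HK3 were at the floor.

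Glucose and lactate transporters were expressed for 12 of 17. SLC2A3 (GLUT3), a transporter of neurons and early embryos, had 631, 645 and 701 CPM, and SLC2A1 (GLUT1) had 360, 351 and 393. Their shares of 13 facilitative transporters were 53.1% ± 0.498 and 38.7% ± 0.552, and SLC2A2 (GLUT2) was at the floor. SLC2A3 has a near-identical copy, SLC2A14, listed at 6.63 ± 0.103 CPM. The lactate carrier SLC16A1 (MCT1) took 97.5% ± 0.229 of 4 monocarboxylate transporters. Of 30 citrate cycle genes 28 were expressed, the highest per length being IDH1 at 38.6 ± 0.104 CPM per kb, FH and CS. Per kilobase IDH1 was 1.86 times IDH2.

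Biosynthetic and redox genes were broadly expressed. For serine, glycine and one-carbon metabolism this held for 19 of 22 genes, with the thymidylate synthase TYMS at 125 ± 2.42 CPM per kb and the serine enzyme PSAT1 at 95.9 ± 1.04. TYMS overlaps ENOSF1 on the opposite strand, at 20.8% of its CPM. Cholesterol synthesis genes were expressed for 23 of 25, led by HMGCS1 at 427, 422 and 414 CPM. Of 22 fatty acid genes 21 were expressed, and the desaturase SCD had 1025, 1033 and 989 CPM and stood at 189 ± 4.4 CPM per kb. Amino acid transporters were expressed for 20 of 24, with the cystine importer SLC7A11 at 531, 592 and 592 CPM. ODC1, the entry enzyme of polyamine synthesis, stood at 118 ± 6.24 CPM per kb and PGD of the pentose phosphate pathway at 111 ± 1.05. Among redox and metal genes, expressed for 25 of 32, the ferritin chains FTL and FTH1 stood at 1297 ± 85.4 and 455 ± 17.4 CPM per kb and the peroxiredoxin PRDX1 at 320 ± 12.7.

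**Figure D3:**
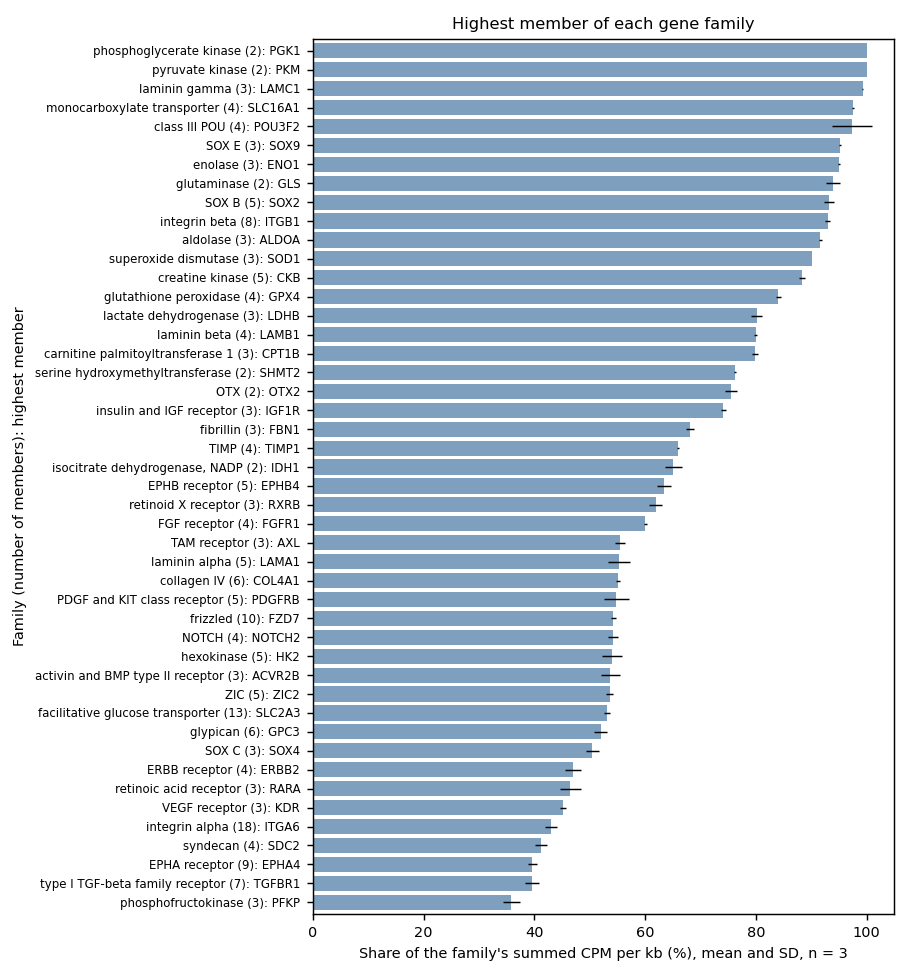
Share of the highest member in the summed CPM per kb of each of 46 gene families, as mean and SD over the 3 control libraries, with the number of members in parentheses. Shares range from 35.8% for PFKP to nearly all for PGK1 and PKM, and SOX2 takes 93.1% of the SOX B genes.

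The question of which genes vary between replicates was put to 16484 genes with at least 10 counts in each library. The 3 libraries were close, with Pearson r of 0.996 across expressed genes for each pair of libraries (log2 CPM, genes are not independent) and a biological coefficient of variation of 4.13% from edgeR's common dispersion. Pearson's chi-square test of each gene's counts against the library totals, adjusted by Benjamini-Hochberg across the 16484, found more spread than counting noise at 0.05 for 2665 genes, 16.2% of those tested. Without replicate 1 the test found 915 and without replicate 2 it found 1418. Of the 2665 genes, 1171 were highest in replicate 1, 751 in replicate 2 and 743 in replicate 3. The differences were mostly small. For 320 genes (1.94% of those tested) the highest library was also at least 1.5 times the lowest. None of the 2351 tested genes with a mean of 100 CPM or more reached that ratio, although 1075 of them (45.7%) were called. The share called thus rose with the level of a gene, and the lists below are read against both shares. Those lists were chosen with earlier results of these data known, so the comparison is a description.

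In the hypoxia response list 20 of 26 genes were called, all 20 highest in replicate 3, against 16.2% called of all tested genes and 45.7% at 100 CPM or more. BNIP3, a mitophagy receptor, had 81.8, 86.7 and 108 CPM in replicates 1, 2 and 3. NDRG1 had 41.2, 43.4 and 56.2 CPM, and PDK1, the kinase that holds back pyruvate dehydrogenase, 97.4, 104 and 121. The carbonic anhydrase CA9 had 5.53, 4.81 and 7.14 CPM. The largest ratio of highest to lowest library was 1.48, for CA9. Genes not called included ADM and CA12, at 18.7, 18.2 and 19.3 and at 2.17, 2.27 and 2.14 CPM. Without replicate 3, 8 of the 26 genes were called.

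Glycolytic genes were called for 15 of 20 tested, 12 of them highest in replicate 3 and 3 in replicate 1. With TMM-scaled library sizes the same count of 15 divided into 14 and 1. PGK1, LDHA, ENO1 and ALDOC stand in both lists. PGK1 had 501, 484 and 585 CPM and ALDOA 613, 511 and 623. Without replicate 2, 6 of 20 were called. The median excess coefficient of variation, the spread left after counting noise is taken off, was 5.6% for tested glycolytic genes and 8.9% for the hypoxia list, against 2.34% over all tested genes.

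All 13 mitochondrially encoded protein genes were called and all were highest in replicate 2. All lie above 100 CPM, where 45.7% of genes were called. They summed to 52895, 56505 and 51862 CPM in replicates 1, 2 and 3. MT-ATP8 had 799, 964 and 761 CPM and MT-ND4L 784, 869 and 681, and each overlaps a neighbouring mitochondrial gene. Without replicate 2, 9 of the 13 were called. Immediate early genes, which respond to handling and serum within minutes, were called for 6 of 15 (16.2% of all tested genes), all 6 highest in replicate 1. FOS had 10.1, 6.44 and 7.1 CPM, JUNB 4.43, 2.82 and 3.21, and MYC 5.89, 5.25 and 4.04. Without replicate 1 the count was 1 of 15, and without replicate 2 it was 2. Redox and metal genes were called for 14 of 26 (53.8%), close to the 45.7% of genes at 100 CPM or more, of which 11 were highest in replicate 1, for example FTL with 1223, 1082 and 1109 CPM, and 3 in replicate 3. With TMM-scaled library sizes 12 were called, 8 highest in replicate 1 and 4 in replicate 3. Without replicate 1 the count was 5, and without replicate 2 it was 9 of 27.

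The remaining lists are set against the same shares of 16.2% for all tested genes and 45.7% for those at 100 CPM or more. Proliferation genes were called for 8 of 28 tested, interferon response genes for 2 of 17, ATF4 stress genes for 4 of 16 and cholesterol genes for 5 of 23. Replication-dependent histones were called by the chi-square test for 0 of 14, with 1 of them under an unadjusted p of 0.05. The proliferation genes with the largest excess variation were CCNE1 at 6.16%, which was not called, MCM5 at 5.15% and CENPE at 5.07%. YAP target and cytoskeletal genes were called for 5 of 14, 4 of them highest in replicate 1, for example CCN2 with 27.4, 22.4 and 25.3 CPM. Among lineage genes, the primed pluripotency list had 7 of 16 called with a median excess variation of 3.47%, and the neural crest list 2 of 13. The primitive streak and mesoderm list had 0 of 10 called by the chi-square test, and 0 under an unadjusted p of 0.05. SOX2 was called, with an excess variation of 3.16%.

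**Figure D4:**
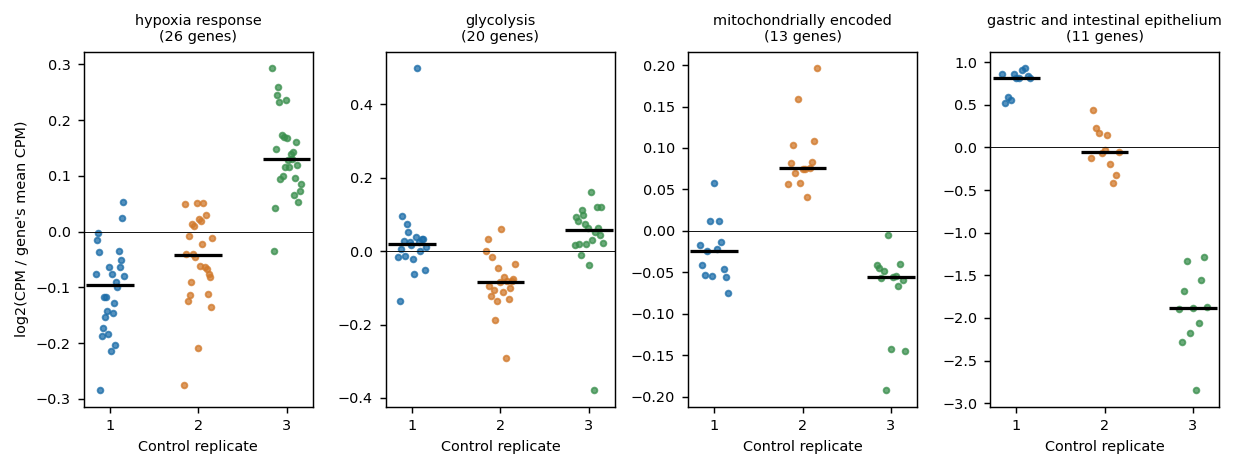
Difference of each gene's CPM from its mean over the 3 control libraries (log2), by replicate, for genes with at least 10 counts in each library; bars are medians and vertical scales differ. Hypoxia genes sit highest in replicate 3, mitochondrial genes in replicate 2, and the gastric and intestinal epithelial genes, a list written after values were seen, are highest in replicate 1 and lowest in replicate 3.

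Of the 20 genes with the largest excess variation among 11661 genes of at least 5 CPM, 4 were protein-coding genes with no exon overlap on the same strand. Of the rest, 7 share an exon with another gene on the same strand (17.6% of the 11661 genes do), 3 more are structural RNAs, 3 are other non-coding RNAs, 1 is the pseudogene HMGB1P6, and 2 have no match in GENCODE 29. The read-through BLOC1S5-TXNDC5 had 13.7, 7.04 and 0 CPM. RAB43 had 7.66, 2.82 and 9.24 CPM, and together with ISY1-RAB43 15.6, 16 and 15.8. ZNF709 had 9.56, 4.97 and 4.21 CPM, and together with the annotations it overlaps 9.56, 10.1 and 9.83. Over the 112 genes of the 1.5-fold group that have such partners in the table, 16 still reached that ratio after summing, though a partner of much higher level sets such a sum.

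For long non-coding RNAs of chromosome 21 named by clone, the sum of 5 picked by their values is given as a description. FP236241.1 had 31.1, 33.5 and 0.138 CPM and CU633906.1 12.8, 0.199 and 8.17. With CU633904.1, CU633967.1 and CU634019.1, chosen after values were seen, the 5 summed to 114, 116 and 113 CPM. CU633904.1 and CU634019.1 held identical counts in replicate 2 (504) and in replicate 3 (362). The signal recognition particle RNAs RN7SL2 and RN7SL1, which lack a poly(A) tail, had 26.7, 8.95 and 11.2 CPM and 28.2, 12.4 and 12.1. The ribosomal RNA RNA5-8SN4 had 12, 2.78 and 2.0 CPM. All 3 were highest in replicate 1.

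The 4 protein-coding genes without same-strand overlap among the 20 were SERPIND1 (heparin cofactor II, a liver-made protease inhibitor), REG4 and LYZ (secreted proteins of gut epithelium, LYZ also of myeloid cells) and ALDH1A1 (a retinal dehydrogenase). LYZ overlaps AC020656.1 on the opposite strand, which is listed at 0 CPM. SERPIND1 had 13.5, 6.72 and 1.10 CPM in replicates 1, 2 and 3, REG4 10.2, 5.17 and 1.52, LYZ 14.7, 13.8 and 2.10, and ALDH1A1 16.8, 9.98 and 3.31. Each was highest in replicate 1 and lowest in replicate 3. Of the 97 called protein-coding genes without same-strand overlap whose highest library was at least 1.5 times the lowest, 61 were highest in replicate 1 and 54 lowest in replicate 3, against 143 and 146 of all 320 genes at that ratio. At a ratio of at least 3, chosen after values were seen, 24 of the 97 remained, these 4 among them. Of the other 20, 19 were highest in replicate 1 and 19 lowest in replicate 3.

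A list of 32 gastric and intestinal epithelial genes, written after these values were seen, is given as a description. TFF1, a trefoil peptide of gastric mucus cells, held 178, 60 and 9 counts, CLCA1, secreted by goblet cells, 213, 76 and 24, and TSPAN8, an epithelial tetraspanin, 200, 97 and 14. ANXA10 held 112, 45 and 12, AGR2, a mucin-folding protein, 82, 49 and 15, and the tight junction gene CLDN18 46, 27 and 11. EPCAM, the epithelial adhesion molecule, held 123, 42 and 25, and the colon and gastric antigen CEACAM6 49, 15 and 8. Over the list the summed level was 68.5, 42.5 and 10.3 CPM. Only LYZ and REG4 reached 1 CPM in every library. The list was not uniform: GKN1, GKN2, KRT20 and PIGR held no count in any library, TFF2, MUC2, AGR3, OLFM4 and FABP1 were at the floor, and CDH17, VIL1 and CTSE held at most 9 counts.

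Liver-type secreted proteins, a list also written afterwards, behaved unevenly. ALB (albumin) held 68, 22 and 3 counts, ITIH2 119, 56 and 7, and the fibrinogen genes FGA, FGB and FGG 25, 11 and 4, 31, 13 and 4, and 29, 17 and 5. AMBP at 74, 62 and 62 and APOA1 at 56, 37 and 38 counts were not called variable, and APOA2, APOH, TTR and AHSG were at the floor. Detoxifying enzymes, also listed after values were seen and given as a description, were called for 6 of 8 tested (16.2% of all tested genes). GSTA1 held 159, 51 and 12 counts, AKR1B10 116, 40 and 14, and AKR1C1 197, 99 and 69. AKR1C3 at 73, 38 and 49 counts and GSTA4 at 39.9, 41.7 and 40.5 CPM were not called. GSTP1, the highest of that group in CPM, had 274, 247 and 254. Some of these genes belong to lists described above, EPCAM to ovarian epithelium, LYZ to immune cells and ALB, AFP and GATA6 to endoderm, where GATA6 had 2.47, 2.03 and 1.07 CPM. L1TD1 of the pluripotency list, with 2.69, 1.87 and 0.828 CPM, had the same order. The source of these transcripts was not tested, and no label gives a difference between the 3 libraries.

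**Figure D5:**
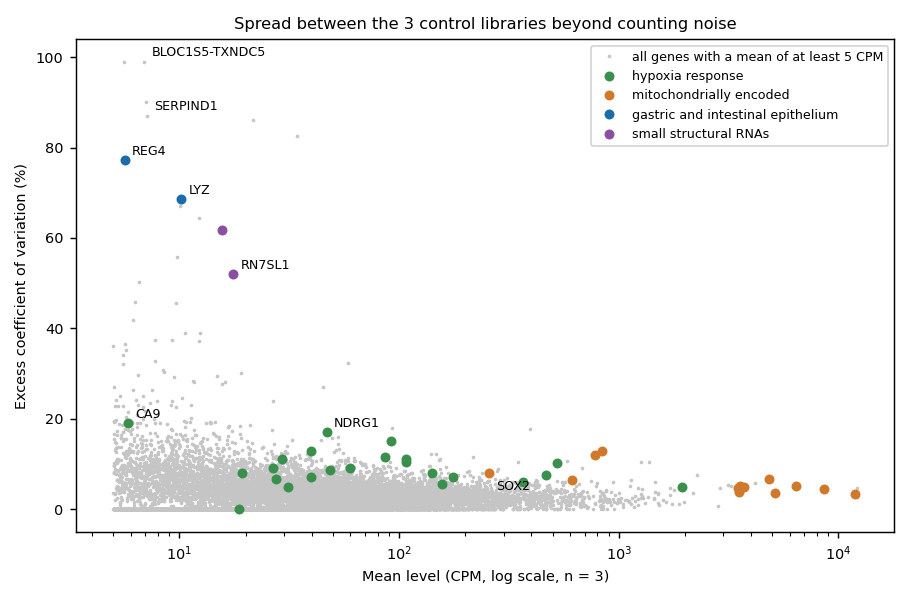
Excess coefficient of variation (percent) against mean CPM (log axis) for 11661 genes with a mean of at least 5 CPM; coloured points are members of 4 lists. The most variable genes are of low level, NDRG1 reaches 17.0%, and SOX2 at 255 CPM has 3.16%.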

How the data were processed

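Trizol was used to extract RNA, and the KAPA mRNA HyperPrep kit, which selects polyadenylated RNA, to prepare libraries, per the labels' protocols. The authors deposited raw counts per gene symbol, whole numbers in 1 column per library, and columns were tied to libraries by their descriptions. The submitters' processing notes name bcl2fastq 2.20.0, STAR 2.7.3a, Salmon 0.14.1, DESeq2 1.28.1 and the build GRCh38.p13. Which program made the counts, whether strand was used and the annotation are not given in the sources used here.

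CPM is the count divided by the library total, times 1000000. Exon lengths are the union of exons in GENCODE 29, to which 56622 symbols matched (99.2% of expressed symbols). Among the 295 genes that are among the 6 highest expressed of a list, 94 overlap an exon on the opposite strand, and in 30 the partner reached 10% of the gene's CPM.

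Variation was tested by Pearson's chi-square (2 degrees of freedom, scipy 1.17.1) on counts of genes with at least 10 in each library. The excess coefficient of variation is the square root of the squared coefficient less 1 over the mean count. Dispersion came from edgeR 4.0.16 in R 4.3.3, with TMM as an alternative (factors 0.995 to 1.01), and DESeq2 1.42.0 gave alternative size factors. In simulated data of the 16484 genes, 200 were given a spread of 10%, 20% or 40%. The test recovered 37%, 60.5% and 80% of these 200, with 4.72% to 5.13% false calls. The other genes held counting noise alone, which the test assumes, so the rate of false calls was set by the design. In the libraries 16.2% of genes were called, so neither rate need carry over to them. Tables and figures used Python 3.11.15, pandas 2.3.3, numpy 2.4.6 and matplotlib 3.10.9.

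Named genes are up to 6 of the highest per length in each list with members at the floor, the 15 highest of all genes, the highest of each family, the 3 most variable per variation list and the 20 with the largest excess variation at 5 CPM or more. The members and lists were chosen with earlier results of these data known. Others named, such as NANOG, LGR5, FGF2, GSTP1 and LARP7, were chosen after values were seen. A few genes picked by this rule are left out of the text.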

Additional observations from a re-analysis of the deposited data

How the results depend on the processing

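The number of genes called variable was 2661 with TMM, 2688 with DESeq2's size factors, 2918 with a mean of at least 5 counts, 2588 with at least 100 counts in each library and 2663 with a likelihood ratio (G) test. Leaving out 1 replicate gave 915 to 2108 genes, the lowest without replicate 1. Among genes without a same-strand exon overlap, an alternative chosen after seeing the data, it was 14.7% of 13654. The number of expressed genes was 15649 at 0.5 CPM and 13041 at 2 CPM, and 14399 to 14456 without 1 replicate. The biological coefficient of variation was 3.45% to 4.74% without 1 replicate, the lowest without replicate 1, and 3.9% at 100 counts or more. The mitochondrial share was 5.38% for protein-coding symbols alone, since that leaves out the ribosomal RNAs, and 6.56% to 6.83% without 1 replicate. No level of the 329 genes ranked among the 6 highest of a list moved by over 1 SD under TMM. Leaving out 1 of 3 replicates cannot move a mean by over 1 SD, so it could not test these levels. The excess variation of the 20 named genes moved by over 1.5 times in 25 of 80 cases, all on leaving out a replicate. The highest member changed in 4 of 46 families with the mean transcript length (hexokinase, VEGF receptor, TAM receptor, laminin alpha) and in 5 with no length correction. No paired analysis was possible because only 1 group was analysed. With 3 libraries, a gene under 10 counts in any of them was not tested, and 3 counts limit detection.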

Other observations

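Genes of oncofetal growth control, a list written after values were seen, were expressed for 12 of 12 members. TRIM71, a target of let-7 and partner of the LIN28 genes, had 595, 593 and 599 CPM in replicates 1, 2 and 3. IGF2BP1, an RNA-binding protein of fetal tissue, had 672, 652 and 668 CPM, with IGF2BP2 at 332, 327 and 331 and IGF2BP3 at 241, 251 and 256. The chromatin proteins HMGA1 and HMGA2 had 999 and 477 CPM on average. Per kilobase of exon MYCN stood at 28.6 CPM per kb against 1.69 for MYC and 1.09 for MYCL, so the N-type gene was the highest of the 3 MYC family members listed.

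Cadherins and other adhesion genes, chosen in the same way, did not divide cleanly by type. The neural and mesenchymal CDH2 had 247, 266 and 259 CPM and CDH6 683, 668 and 693, while the epithelial CDH1 had 1.59, 1.15 and 1.14. The epithelial CDH3 had 8.56 CPM on average, the mesenchymal CDH11 0.361, and the neural NCAM1 0.519, and the neural CDH4 was at the floor. CLDN6, an oncofetal tight junction gene, had 158, 134 and 145 CPM, and its exons overlap TNFRSF12A on the opposite strand at 14.1% of its CPM. CDH16, CDH19, CDH20 and CDH22 held no count. MUC16, which encodes the CA125 antigen, held 32, 12 and 60 counts and was highest in replicate 3, unlike the gastric and intestinal genes.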
